A study of Mus musculus with 8 samples.

Results

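The genes described here are 39 interferon-stimulated effector genes, the genes through which a cell carries out its response to interferon. They were listed by name and matched by Ensembl identifier and mouse symbol, and all 39 were found among the 55401 gene identifiers of the count table. The samples are RNA sequencing libraries of mouse lines derived from epithelioid hemangioendothelioma (EHE), a rare vascular tumour whose cells resemble endothelium. There were 3 lines: EHE6 (n = 3 libraries), EHE17 (n = 3) and EHE26 (n = 2). All the labels say of a group is the name of its line, that the cells are mouse, and that the RNA was polyadenylated; they give no genotype, driver allele, strain, treatment, passage or culture date. Whether the replicates of a line are separate cultures is not stated, so p-values here measure the spread between these libraries, which may be technical. The design implies 3 comparisons, each line against each other line.

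As background, interferons bind receptors on the cell surface, and the Janus kinases attached to these receptors phosphorylate STAT proteins. Phosphorylated STAT proteins together with IRF9 bind interferon-stimulated response elements (ISRE) in the promoters of their target genes, and STAT dimers bind gamma-activated sites (GAS). The targets described here include proteins that bind or cut viral RNA, block entry or release of virus, attach the ubiquitin-like protein ISG15 or ADP-ribose to other proteins, or bind nucleic acids in the nucleus. Endothelial cells are among the many cell types that respond to interferon.

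Total counts were 44620965 to 96237665 per library. Levels are given as CPM, in which counts are divided by the TMM-corrected size of their library, and a log2 fold change is given with its standard error (SE) and the adjusted p of edgeR's quasi-likelihood test, corrected over all 18882 tested genes by the Benjamini-Hochberg method. The word called is kept for genes with an adjusted p under 0.05 whose log2 fold change was 1 or more in size. All 39 genes passed the filter on low counts, and 37 also passed it on the EHE6 and EHE17 libraries alone (Phf11b and Epsti1 did not). Libraries fell into 2 sets on the first principal component (56.2% of the variance): the EHE26 libraries and replicate 3 of EHE6 and of EHE17 had positive scores (41.7 to 148) and the other 4 libraries had negative ones. EHE26 lies wholly in this second set, so results are followed by fits that include the set or use a single set, alternatives partly chosen after the data were seen. Of 10 pan-endothelial markers, all tested, Pecam1, Cdh5 and Erg were at 42.0 CPM or more in all 8 libraries, but the list summed to 3891 and 4962 CPM in EHE26, against 2666 (replicate 3) to 12070 in EHE6 and 6159 to 10040 in EHE17. The median log2 fold change of these markers in EHE26 was -1.44 against EHE6 and -1.18 against EHE17, and Cldn5 was at 7.95 and 0.526 CPM in EHE26. By edgeR 0 of them were called, 3 and 2 had an unadjusted p under 0.05 in these comparisons, and DESeq2 called 3 and 2 lower. Fibroblast markers summed to 45.5 to 268 CPM in EHE6, 35.8 to 261 in EHE17 and 186 to 427 in EHE26, and epithelial markers to 19.8 to 104, 0.883 to 29.3 and 3.31 to 31.2 CPM. Among them Pdgfra was at 252 CPM in EHE6 replicate 3 and 77.5 and 59.8 CPM in EHE26, against 1.14 to 5.21 CPM elsewhere. Col3a1 was at 6.49 to 10.6 CPM in EHE6, 24.9 to 198 in EHE17, and 136 and 102 in EHE26. Col1a2 was at 0.0401 to 0.132 CPM in EHE26 and EHE17 replicate 3, against 5.65 to 9.73 CPM elsewhere. Epcam and Cdh1 were at most 0.0368 CPM in EHE26 and had 0 reads in replicate 3 of EHE6 and of EHE17. Krt18 was at 4.30 to 89.2 CPM in EHE6, 0.582 to 7.84 in EHE17, and 2.54 and 28.3 in EHE26. By edgeR 0 fibroblast and 0 epithelial markers were called in EHE26 against EHE6, where 3 and 2 had an unadjusted p under 0.05 and DESeq2 called 2 and 1. The part of these markers in the results below was not tested. Summed levels of 10 leukocyte and macrophage markers were low, at 18.4 to 28.6 CPM in EHE6, 26.0 to 68.4 in EHE17 and 36.1 to 42.4 in EHE26. None of the 6 of these markers that were tested was called by edgeR in any comparison, with 1 at an unadjusted p under 0.05 in EHE26 against EHE6, 0 in the other comparisons, and 0 called by DESeq2. The defining leukocyte gene Ptprc was at most 1.49 CPM, and the T-cell gene Cd3e at most 0.0269 CPM, in every library. Lyz2 was higher, at 13.7 to 19.3 CPM in EHE6, at most 36.6 in EHE17, and 37.2 and 27.1 in EHE26, where it held most of the sum. It was the marker under 0.05 in EHE26 against EHE6 (edgeR's unadjusted p = 0.0267, adjusted p = 0.2755). Cd68 was at 29.5 CPM in EHE17 replicate 3 and 1.39 to 5.68 CPM elsewhere. The part of Lyz2 and Cd68 in the results below was not tested.

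EHE26 carried far higher levels of nearly the whole list than either other line. Against EHE6, 32 of 39 genes were called higher and 0 lower, where 1.10% of all tested genes were called higher. The median log2 fold change over the 39 genes was 4.31, a 19.9-fold difference, against -0.11 over all tested genes. Against EHE17, 26 of 39 were called higher and 0 lower, beside 0.890% of all tested genes, with a median log2 fold change of 3.59 (12.1-fold) against -0.11 over all tested genes. Both counts of genes called higher include Phf11b and Epsti1, which entered the test only through the EHE26 libraries, where they are high. The comparisons share the EHE26 libraries and are not independent of each other. In RNA from whole cultures more responding cells and more RNA per cell cannot be told apart. For the counts of 0 lower, edgeR's unadjusted p was under 0.05 for 0 genes with lower levels in EHE26 against EHE6 and for 1 against EHE17, and DESeq2 called 0 and 1 lower.

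The separation was visible in single libraries. Both EHE26 libraries were above all 6 other libraries for 38 of the 39 genes, a pattern found for 9.88% of all tested genes. Every EHE26 library was above every EHE6 library for 38 genes (16% of all tested genes) and above every EHE17 library for 38 genes (18.7% of all tested genes). The exception in each case was Ifi27. In EHE26 replicates 1 and 2 the median level over the 39 genes was 126 and 158 CPM, against 2.45, 3.06 and 5.82 CPM in the EHE6 libraries and 10.4, 10.4 and 11.4 CPM in the EHE17 libraries. At least 100 CPM was reached by 24 and 25 of the genes in the EHE26 libraries and by 2 to 5 in each other library. Levels under 1 CPM were found for 7 to 13 genes in each EHE6 and EHE17 library and for none in EHE26. The 2 EHE26 libraries lay close together, with a median ratio of the higher to the lower library of 1.21 and a largest ratio of 2.29. Replicate 2 was the higher of the pair for 31 of the 39 genes, and the share over all tested genes was not taken.

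**Figure D1:**
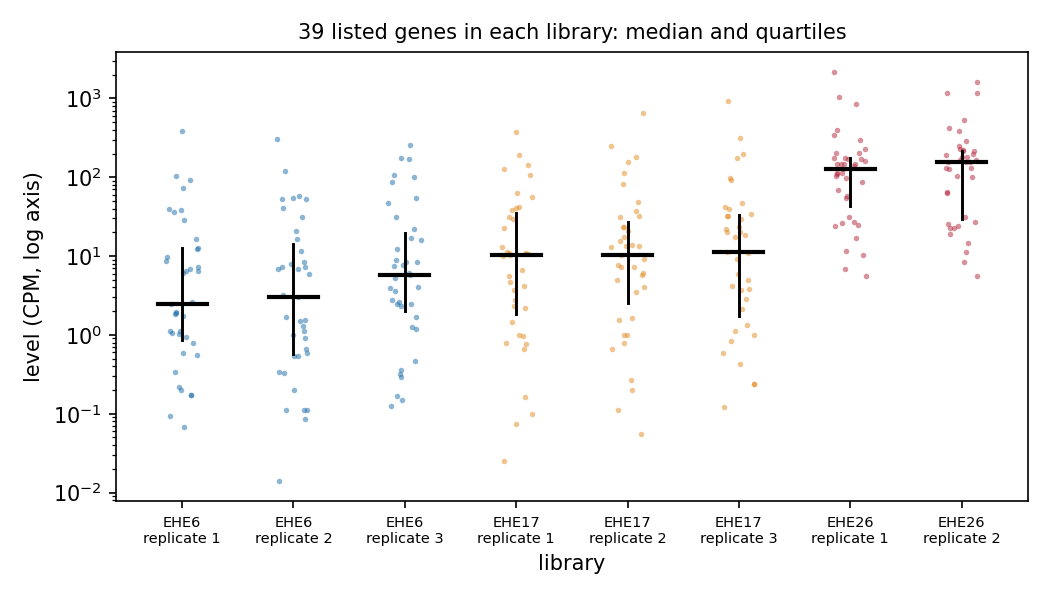
Level of each of the 39 genes (points, CPM on a log axis) in each of the 8 libraries, with the median (horizontal bar) and the quartiles (vertical bar); Ifi205 in EHE17 replicate 3, with no read, is not drawn. The medians of the EHE26 libraries are 126 and 158 CPM and those of the other 6 lie between 2.45 and 11.4 CPM.

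The number of calls depended on single libraries more than the sizes did. For EHE26 against EHE6 the 32 calls became 14 without EHE6 replicate 1, 20 without EHE6 replicate 2, 17 without EHE26 replicate 1 and 18 without EHE26 replicate 2. For EHE26 against EHE17 the 26 calls became 0 without EHE17 replicate 1 and 0 without EHE17 replicate 2, 9 without EHE26 replicate 1 and 2 without EHE26 replicate 2. Calls over all genes fell in the same fits, from 207 higher to between 58 and 86 against EHE6. Against EHE17 they went from 168 higher to 6 of 18185 and 1 of 18496 without EHE17 replicates 1 and 2, and to 38 and 20 without EHE26 replicates 1 and 2. Over the 8 fits that each left out 1 library, the median log2 fold change of the 39 genes stayed between 4.02 and 4.72 against EHE6 and between 3.49 and 3.73 against EHE17. The genes called against EHE6 in all 8 of these fits were Cmpk2, Ddx60, Dtx3l, Ifi44, Ifih1, Ifit3, Ifit3b, Mx2, Parp14, Parp9, Phf11d, Rsad2, Trim30a and Xaf1. Against EHE17 no gene was called in more than 6 of the 8, a number reached by Cmpk2 and Sp100.

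The difference was of similar size within the second set of libraries. There, 30 of 39 genes were called higher in EHE26 than in EHE6 replicate 3 (1.59% of all genes tested there) with a median log2 fold change of 4.16. Likewise 31 of 39 were called higher in EHE26 than in EHE17 replicate 3 (2.43% of all) with a median of 3.27. A single library stands for EHE6 and for EHE17 in these fits and is assumed to vary like the EHE26 pair, the only source of the spread. When the fit of all 8 libraries included the set, 29 of 39 were called higher against EHE6 (1.57% of all tested genes) and 22 of 39 against EHE17 (1.29%), with medians of 4.14 and 3.17.

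**Figure D2:**
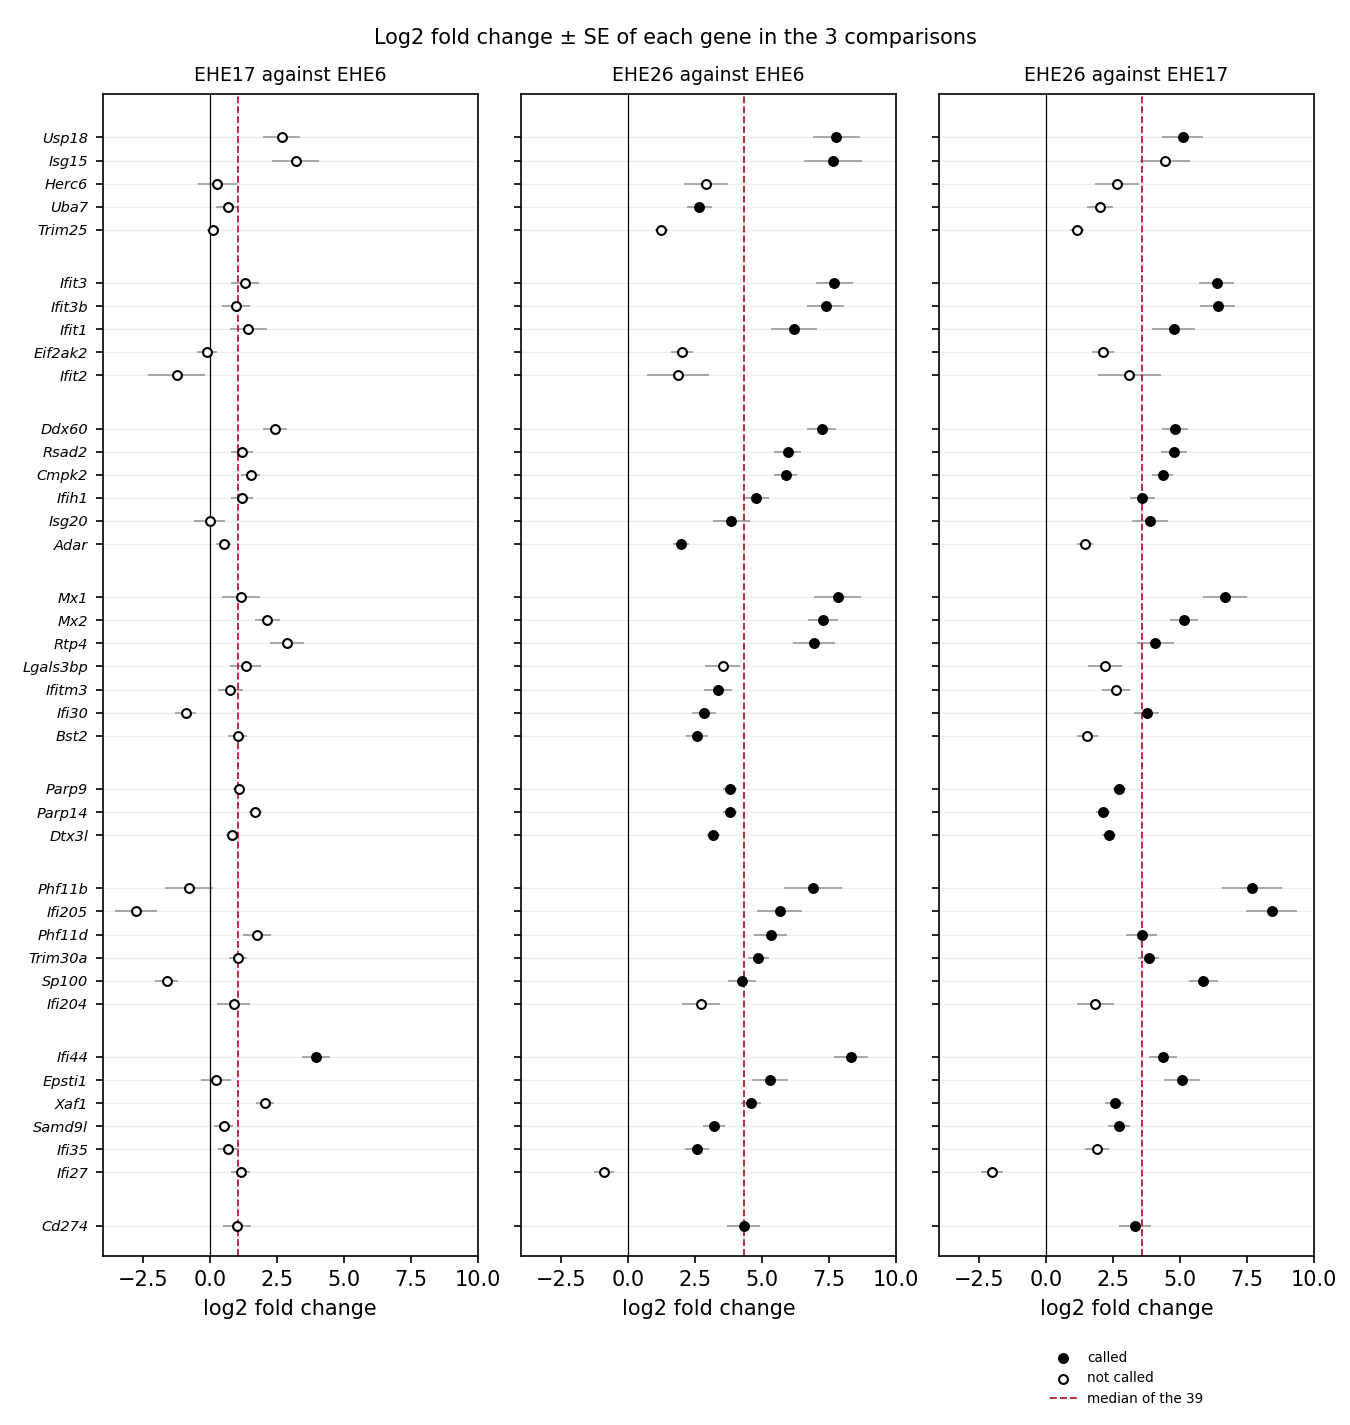
Log2 fold change ± SE of each of the 39 genes in EHE17 against EHE6 (left), EHE26 against EHE6 (middle) and EHE26 against EHE17 (right), in the order of the role groups. Filled points are called, open points are not, and the dashed lines mark the medians of 1.03, 4.31 and 3.59; Ifi27 is the only gene left of 0 in the middle and right panels.

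Promoter sequences are shown because the list moved together and is known for sharing a response element. RefSeq promoter windows of 300 bases (250 before to 50 after the start site, GRCm38.p6) matched 31 of the 39 genes with 38 windows. The genes not matched were Mx1, Mx2, Usp18, Ifi27, Rtp4, Parp9, Parp14 and Ifi204. An ISRE-like motif (GAAANNGAA or, on the other strand, TTCNNTTTC, with matches allowed to overlap) was found in 19 of the 38 windows (50%), against 8.56% of all 32851 windows. By gene, 18 of 31 had a match, against 9.76% of 27025 genes, and 11 of them had at least 2. A GAS-like motif (TTCNNNGAA, which reads the same on both strands) was found in 7 of the 38 windows (18.4%), against 8.30% of all windows, and overlapped an ISRE-like match in 2 of the listed windows. A match is a description of the letters and not a site or a cause. The pattern has fixed letters and spacing, so similar stretches that differ from it are neither counted nor marked below.

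Of the 34 ISRE-like matches, 21 (61.8%) lay in the last 150 bases before the start, against 47.5% of the matches in all windows. The stretches below run 5′ to 3′ on the strand of the gene, with the ISRE-like letters in capitals. Ifi44 is shown as the gene with the largest fold change, and Isg15, Ifit3 and Ifit3b, chosen with their values known, as genes with 3 matches each. Ifit1 also had 3 matches and is not shown. The Ifi44 stretch is chr3:151749905-151750025 on the minus strand, and the Isg15 stretch is chr4:156200819-156200938 on the minus strand. Those of Ifit3 and Ifit3b, chr19:34583369-34583448 and chr19:34607765-34607844 on the plus strand, were equal at 80 of 80 bases. In Isg15 the 3 matches overlap and start 78, 72 and 66 bases before the start site. In Ifit3 the matches start 155, 121 and 102 bases before it, in Ifit3b 187, 153 and 134 bases before it, and in Ifi44 the only match starts 3 bases before it.
Ifi44: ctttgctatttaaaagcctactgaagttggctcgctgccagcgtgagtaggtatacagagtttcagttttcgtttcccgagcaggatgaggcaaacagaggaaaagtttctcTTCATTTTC
Isg15: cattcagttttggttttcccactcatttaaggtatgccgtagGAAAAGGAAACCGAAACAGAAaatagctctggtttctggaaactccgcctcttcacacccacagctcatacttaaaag
Ifit3: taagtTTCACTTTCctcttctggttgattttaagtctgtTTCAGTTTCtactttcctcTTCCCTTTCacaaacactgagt
Ifit3b: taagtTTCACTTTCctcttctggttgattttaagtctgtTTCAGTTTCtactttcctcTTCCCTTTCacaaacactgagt

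**Figure D3:**
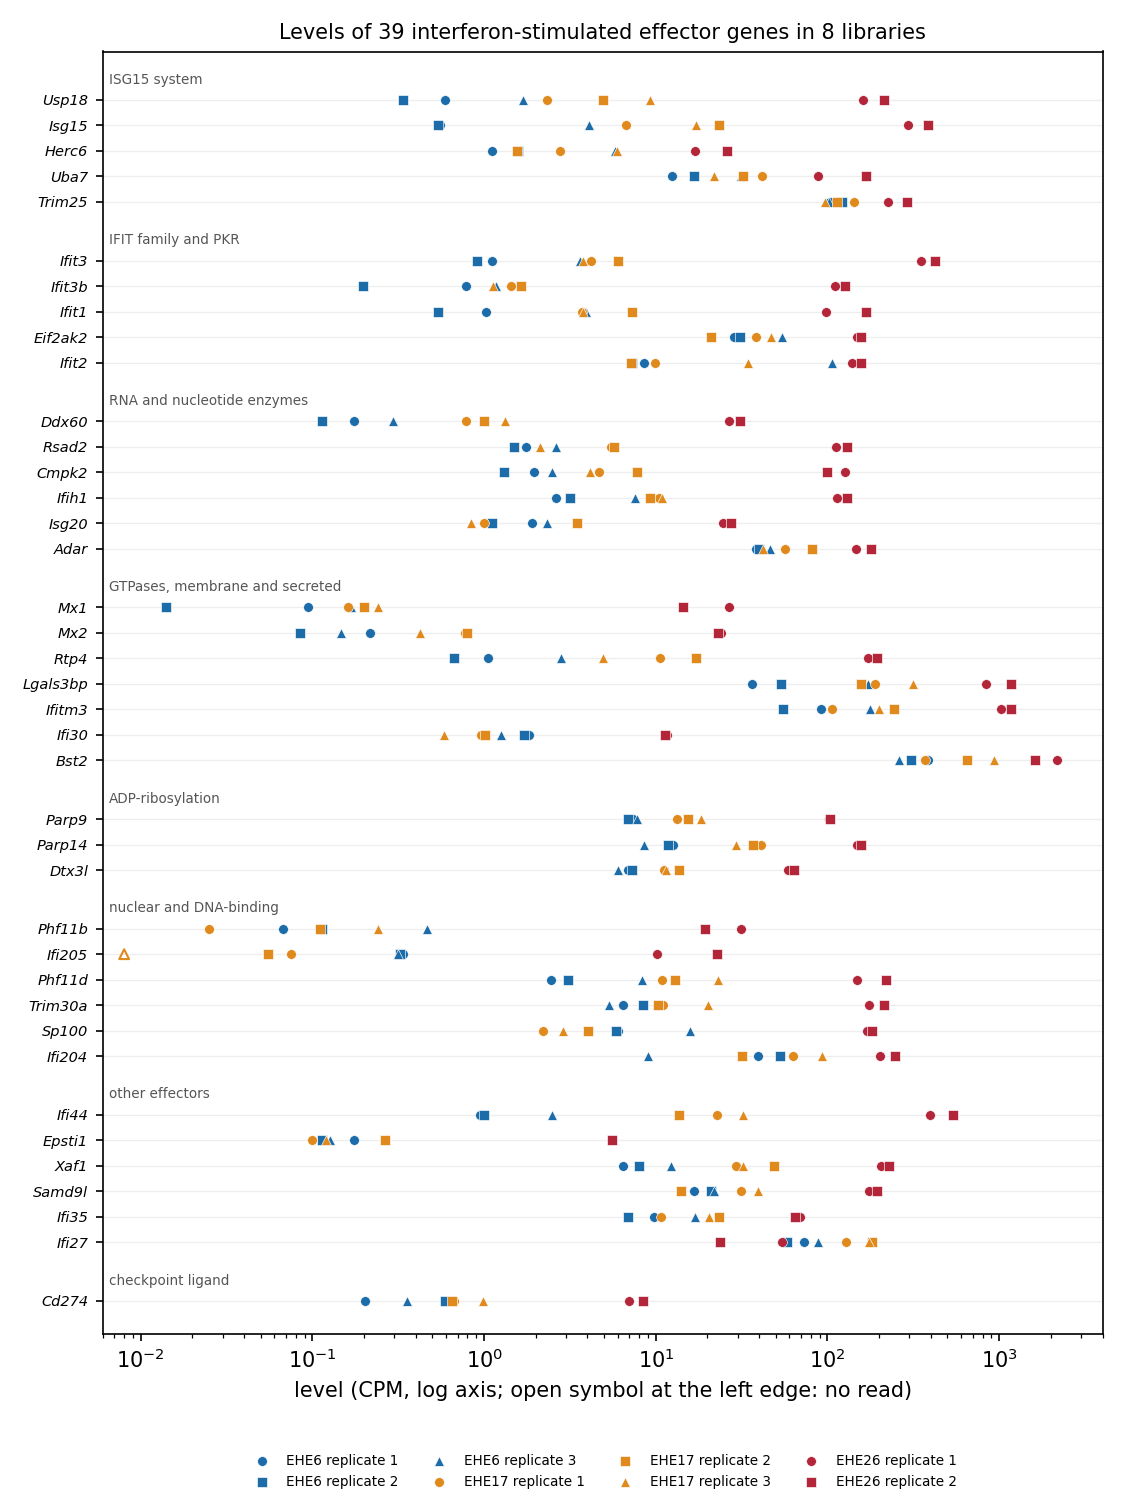
Level of each of the 39 genes in each of the 8 libraries (CPM on a log axis), by role group; colour gives the line, shape the replicate, and an open symbol at the left edge a library with no read. The EHE26 points lie to the right of all others for 38 genes and to the left of all others for Ifi27.

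In the ISG15 system, 3 of 5 genes were called higher in EHE26 against EHE6 and 1 of 5 against EHE17, with median log2 fold changes of 2.92 and 2.65. Isg15 (chr4:156199424-156200818), the ubiquitin-like protein itself, was at 0.552, 0.536 and 4.08 CPM in EHE6, 6.74, 23.2 and 17.2 CPM in EHE17, and 296 and 386 CPM in EHE26. The 3 lines did not overlap, and EHE6 replicate 3 stood above the other EHE6 libraries. Its log2 fold change was 7.65 ± 1.08 (adjusted p = 0.0184) in EHE26 against EHE6, and 4.44 ± 0.95 (adjusted p = 0.0827, not called) against EHE17. Usp18 (chr6:121245906-121270917), the protease that removes ISG15 and dampens receptor signalling, was at 0.593, 0.339 and 1.68 CPM in EHE6, 2.34, 4.94 and 9.25 in EHE17, and 161 and 215 in EHE26. It had the largest change of the group, with log2 fold changes of 7.77 ± 0.87 (adjusted p = 0.00604) against EHE6 and 5.10 ± 0.77 (adjusted p = 0.0299) against EHE17. Uba7, the enzyme that activates ISG15 for conjugation, was called against EHE6 (2.66 ± 0.48 on the log2 scale, adjusted p = 0.0457).

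The other two genes of this system encode ligases and were not called in any comparison. Trim25, which also ubiquitinates the RNA sensor RIG-I, had the highest mean CPM of the group over the 8 libraries, not scaled to length, at 104, 121 and 102 CPM in EHE6, 144, 114 and 96.8 in EHE17, and 225 and 292 in EHE26. Its EHE26 libraries were the highest, but the difference was small, at a log2 fold change of 1.25 ± 0.26 (adjusted p = 0.0769) against EHE6. Herc6, the main ligase for ISG15 in the mouse, was between 1.12 and 5.94 CPM in EHE6 and EHE17 and at 16.9 and 25.9 CPM in EHE26, with a log2 fold change against EHE6 of 2.92 ± 0.82 (adjusted p = 0.172). In both EHE6 and EHE17, replicate 3 held the highest Herc6 level.

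The IFIT proteins bind foreign RNA ends and block its translation, and Eif2ak2 encodes PKR, a kinase that stops translation on sensing double-stranded RNA. In this group 3 of 5 genes (Ifit1, Ifit3 and Ifit3b) were called higher in EHE26 against EHE6 and 3 of 5 against EHE17, with medians of 6.19 and 4.75. Ifit3 (chr19:34583531-34588731) was at 1.12, 0.903 and 3.64 CPM in EHE6, 4.20, 6.06 and 3.75 in EHE17, and 349 and 424 in EHE26. Its log2 fold changes were 7.69 ± 0.69 (adjusted p = 0.00259) against EHE6 and 6.37 ± 0.65 (adjusted p = 0.00875) against EHE17. The neighbouring copy Ifit3b (chr19:34607970-34613401) was at 0.198 to 1.64 CPM in EHE6 and EHE17 and at 111 and 126 in EHE26, with log2 fold changes of 7.38 ± 0.69 (adjusted p = 0.00296) and 6.40 ± 0.66 (adjusted p = 0.00875). Of the 50-base stretches of Ifit3 transcripts, 51.2% also occur in Ifit3b, so how reads divide between these copies, whose promoter stretches above are equal, is uncertain. Ifit1 was at 0.536 to 7.25 CPM in EHE6 and EHE17 and at 97.7 and 167 in EHE26, with log2 fold changes of 6.19 ± 0.87 (adjusted p = 0.0172) and 4.75 ± 0.81 (adjusted p = 0.0423).

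Ifit2 behaved unlike its neighbours in the same cluster on chromosome 19. It was at 8.58, 7.30 and 106 CPM in EHE6, 9.95, 7.17 and 34.6 in EHE17, and 138 and 158 in EHE26. Both replicate 3 libraries were high, and EHE6 replicate 3 came close to EHE26. Its log2 fold changes of 1.87 ± 1.15 against EHE6 (adjusted p = 0.466) and 3.10 ± 1.19 against EHE17 (adjusted p = 0.262) did not pass. Eif2ak2 was at 28.5, 30.9 and 54.2 CPM in EHE6, 38.1, 20.9 and 47.2 in EHE17, and 149 and 158 in EHE26. The EHE26 libraries were above all others, with log2 fold changes of 2.02 ± 0.41 (adjusted p = 0.0677) and 2.12 ± 0.41 (adjusted p = 0.0628), neither called.

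Among the helicases and enzymes that act on RNA or nucleotides, 6 of 6 genes were called higher in EHE26 against EHE6 and 5 of 6 against EHE17, with medians of 5.33 and 4.11. Ddx60 (chr8:61928087-62038244), a helicase-like antiviral protein, was at 0.175, 0.113 and 0.294 CPM in EHE6, 0.783, 0.996 and 1.32 in EHE17, and 26.6 and 31.0 in EHE26. The reads behind these levels numbered 13, 8 and 14 in EHE6 and 1447 and 1413 in EHE26. The lines did not overlap, and the log2 fold changes were 7.22 ± 0.55 (adjusted p = 0.00159) against EHE6 and 4.80 ± 0.49 (adjusted p = 0.00875) against EHE17. Adar (chr3:89715022-89753446), which edits adenosine to inosine in double-stranded RNA, had the highest mean CPM of the group over the 8 libraries, not scaled to length, at 38.4, 40.2 and 46.5 CPM in EHE6, 56.5, 81.0 and 42.1 in EHE17, and 146 and 179 in EHE26. It had the smallest change of the group, with a log2 fold change of 1.97 ± 0.30 (adjusted p = 0.0251) against EHE6 and 1.44 ± 0.30 (adjusted p = 0.0796, not called) against EHE17. Adar shares 1365 exon bases with Chrnb2 on the opposite strand, a gene with 12 to 211 reads per library.

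Isg20, an exonuclease for single-stranded RNA, was at 1.91, 1.12 and 2.33 CPM in EHE6, 0.994, 3.47 and 0.843 in EHE17, and 24.5 and 27.2 in EHE26. EHE6 and EHE17 overlapped, and the log2 fold changes in EHE26 were 3.86 ± 0.68 (adjusted p = 0.0425) against EHE6 and 3.87 ± 0.68 (adjusted p = 0.0464) against EHE17. Ifih1 encodes MDA5, a sensor of long double-stranded RNA, and had log2 fold changes of 4.79 ± 0.47 (adjusted p = 0.00377) and 3.59 ± 0.45 (adjusted p = 0.0138). Rsad2, which encodes viperin, and Cmpk2, a mitochondrial nucleotide kinase, lie 12752 bases apart on opposite strands of chromosome 12. Rsad2 was at 1.496 to 5.70 CPM in EHE6 and EHE17 and at 113 and 130 in EHE26. Cmpk2 was at 1.31 to 7.76 CPM in EHE6 and EHE17 and at 126 and 99.4 in EHE26. The pair had similar sizes, with log2 fold changes against EHE6 of 5.96 ± 0.51 (adjusted p = 0.00201) for Rsad2 and 5.88 ± 0.43 (adjusted p = 0.00159) for Cmpk2.

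Of the GTPases and membrane or secreted proteins, 6 of 7 were called higher in EHE26 against EHE6 and 4 of 7 against EHE17, with medians of 3.53 and 3.74. The GTPases Mx1 and Mx2, which block viral replication, were nearly silent outside EHE26. Mx1 (chr16:97447035-97462907) was at 0.0943, 0.0141 and 0.168 CPM in EHE6, 0.162, 0.199 and 0.241 in EHE17, and 26.8 and 14.5 in EHE26. In reads these are 7, 1 and 8, then 13, 18 and 12, then 1457 and 660, so the levels outside EHE26 rest on few reads. Its log2 fold changes were 7.83 ± 0.88 (adjusted p = 0.00604) against EHE6 and 6.68 ± 0.83 (adjusted p = 0.0130) against EHE17. Mx2 (chr16:97535308-97560900) was at 0.0847 to 0.216 CPM in EHE6, 0.421 to 0.797 in EHE17 and 23.8 and 23.0 in EHE26, with log2 fold changes of 7.28 ± 0.58 (adjusted p = 0.00159) and 5.13 ± 0.52 (adjusted p = 0.00875).

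Bst2 (chr8:71534255-71537456), which encodes tetherin and holds budding virus at the cell surface, had the highest mean CPM of the 39 genes. It was at 387, 308 and 260 CPM in EHE6, 371, 650 and 935 in EHE17, and 2168 and 1617 in EHE26. EHE26 was the highest, EHE6 and EHE17 overlapped, and the log2 fold change was 2.57 ± 0.41 (adjusted p = 0.0266) against EHE6 and 1.54 ± 0.40 (adjusted p = 0.133, not called) against EHE17. Ifitm3, a membrane protein that blocks viral fusion, was at 54.7 to 177 CPM in EHE6, 106 to 246 in EHE17 and 1030 and 1174 in EHE26, with a log2 fold change of 3.35 ± 0.53 (adjusted p = 0.0278) against EHE6. Rtp4, a Golgi chaperone of membrane receptors, was at 0.663 to 2.79 CPM in EHE6, 4.94 to 17.2 in EHE17 and 173 and 194 in EHE26, with log2 fold changes of 6.94 ± 0.77 (adjusted p = 0.00602) and 4.07 ± 0.68 (adjusted p = 0.0396). Lgals3bp, a secreted galectin-binding glycoprotein, was at 36.2, 53.4 and 172 CPM in EHE6, 157 to 314 in EHE17 and 838 and 1180 in EHE26. Its log2 fold change against EHE6, 3.53 ± 0.66, had an adjusted p of 0.0535 and was not called.

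Ifi30 (chr8:70762774-70766663), a lysosomal thiol reductase, went against the order of most genes in the lower lines. It was at 1.82, 1.71 and 1.26 CPM in EHE6, 0.957, 1.01 and 0.582 in EHE17, and 11.6 and 11.3 in EHE26. Every EHE17 library was below every EHE6 library, at a log2 fold change of -0.91 ± 0.40 that did not pass (adjusted p = 0.729). In EHE26 it was called higher against EHE6 (2.84 ± 0.44, adjusted p = 0.0260) and against EHE17 (3.74 ± 0.46, adjusted p = 0.0130).

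Per kilobase of exon, the scale on which levels of different genes can be set side by side, Bst2 and Ifitm3 led in every line. In EHE26 they were at 2096 ± 431 and 1625 ± 150 CPM per kilobase (mean ± SD, n = 2) and differed by about the SD of Bst2, followed by Isg15 at 451 ± 83.9, Lgals3bp at 354 ± 84.8 and Ifit3 at 221 ± 30.7. Isg15 and Lgals3bp differed by little more than their SDs. In EHE6 (mean ± SD, n = 3) the order after Bst2 (352 ± 71.3) and Ifitm3 (159 ± 92.5) went on with Ifi27 at 49.7 ± 10.1, while Isg15 was at 2.28 ± 2.70 and Ifit3 at 1.08 ± 0.87. In EHE17 (n = 3) Ifi27 was likewise behind Bst2 and Ifitm3, at 110 ± 19.9. The lowest levels in EHE26 were those of Cd274, Herc6 and Epsti1, at 2.12 ± 0.29, 2.30 ± 0.68 and 2.39 ± 0.0034, which overlap within their spread.

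All 3 genes of ADP-ribosylation were called higher in EHE26 against both other lines, with medians of 3.80 against EHE6 and 2.34 against EHE17, and they varied little within a line. Parp9 and Dtx3l form a complex that joins ADP-ribosylation to ubiquitination, and Parp14 is a mono-ADP-ribosyltransferase. Parp14 (chr16:35832874-35871544) was at 12.6, 11.8 and 8.53 CPM in EHE6, 40.7, 36.8 and 29.4 in EHE17, and 149 and 157 in EHE26. The lines did not overlap, and the log2 fold changes were 3.80 ± 0.27 (adjusted p = 0.00159) against EHE6 and 2.10 ± 0.26 (adjusted p = 0.0134) against EHE17. Parp9 (chr16:35938470-35972605) was at 7.36, 6.89 and 7.82 CPM in EHE6, 13.2, 15.4 and 18.3 in EHE17, and 103 and 103 in EHE26. Its log2 fold changes were 3.81 ± 0.25 (adjusted p = 0.00159) and 2.72 ± 0.24 (adjusted p = 0.00779). Dtx3l (chr16:35926511-35939151), on the opposite strand, had log2 fold changes of 3.18 ± 0.25 (adjusted p = 0.00159) and 2.34 ± 0.25 (adjusted p = 0.00896). The exons of Parp9 and Dtx3l share 458 bases, 9.40% and 8% of their lengths, and as the strand setting of the counts is not given, reads of this stretch cannot be assigned to either.

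Of the nuclear and DNA-binding proteins, 5 of 6 were called higher in EHE26 against EHE6 and 5 of 6 against EHE17, with medians of 5.09 and 4.84. Both counts include Phf11b, which entered the test only through the EHE26 libraries. This group had the smallest median difference between EHE17 and EHE6 (0.06), as its members lay on both sides of 0. Sp100 (chr1:85649988-85709998), a scaffold of PML nuclear bodies, was at 6.02, 5.87 and 15.9 CPM in EHE6, 2.20, 4.01 and 2.87 in EHE17, and 171 and 182 in EHE26. Every EHE17 library was below every EHE6 library, and EHE26 was far above both, with log2 fold changes of 4.25 ± 0.51 (adjusted p = 0.00788) against EHE6 and 5.86 ± 0.54 (adjusted p = 0.00779) against EHE17. Ifi205 (chr1:174011998-174031810), one of the PYHIN family of DNA-binding proteins, had the largest log2 fold change of any listed gene against EHE17. It was at 0.337, 0.325 and 0.315 CPM in EHE6, 0.0746, 0.0553 and 0 in EHE17, and 10.2 and 22.8 in EHE26. The reads were 25, 23 and 15, then 6, 5 and 0, then 554 and 1039, and a count of 0 allows up to 3. Its log2 fold changes were 5.65 ± 0.84 (adjusted p = 0.0222) against EHE6 and 8.42 ± 0.96 (adjusted p = 0.0107) against EHE17.

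Phf11b (chr14:59320964-59341351), a PHD finger protein, was at 0.0674, 0.113 and 0.462 CPM in EHE6, 0.0249, 0.111 and 0.241 in EHE17, and 31.5 and 19.3 in EHE26. The reads were 5, 8 and 22, then 2, 10 and 12, then 1710 and 878. Its log2 fold changes were 6.92 ± 1.08 (adjusted p = 0.0255) and 7.69 ± 1.12 (adjusted p = 0.0244). It entered the test only through the EHE26 libraries, where it is high, so these p-values are no evidence of a difference. Of its 50-base stretches, 47.0% also occur in another gene, most often Phf11a, so its level is uncertain. The neighbour Phf11d, 6056 bases away, was at 2.45 to 8.30 CPM in EHE6, 10.8 to 23.2 in EHE17 and 149 and 219 in EHE26, with log2 fold changes of 5.32 ± 0.62 (adjusted p = 0.00741) and 3.56 ± 0.58 (adjusted p = 0.0372). Trim30a, an inhibitor of NF-kB signalling, was at 5.34 to 20.2 CPM in EHE6 and EHE17 and at 175 and 215 in EHE26, with log2 fold changes of 4.86 ± 0.39 (adjusted p = 0.00159) and 3.82 ± 0.37 (adjusted p = 0.00875).

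Ifi204 (chr1:173747293-173766943), another PYHIN protein, had the highest level per kilobase of exon of the nuclear group in each line, and was the only one not called in either comparison with EHE26. It was at 39.6, 53.0 and 9.01 CPM in EHE6, 63.2, 31.6 and 93.2 in EHE17, and 201 and 246 in EHE26. EHE26 was above all others, but EHE6 replicate 3 was the lowest of the 8 libraries, and the log2 fold change of 2.72 ± 0.69 against EHE6 had an adjusted p of 0.139. Of its 50-base stretches 20.0% also occur in other genes.

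Of the remaining effectors, 5 of 6 were called higher in EHE26 against EHE6 and 4 of 6 against EHE17, with medians of 3.91 and 2.63. Both counts include Epsti1, which entered the test only through the EHE26 libraries. Ifi44 (chr3:151730922-151749960), a cytoplasmic interferon-induced protein, had the largest log2 fold change of the list against EHE6. It was at 0.943, 1.002 and 2.48 CPM in EHE6, 22.7, 13.6 and 32.0 in EHE17, and 393 and 539 in EHE26. The 3 lines formed 3 separate steps. EHE26 was 318-fold above EHE6 (log2 fold change 8.31 ± 0.63, adjusted p = 0.00159) and 20.5-fold above EHE17 (4.36 ± 0.54, adjusted p = 0.0130).

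Ifi27 (chr12:103434211-103440239), a small mitochondrial and nuclear-envelope protein, was the exception of the list. It was at 72.5, 58.2 and 87.8 CPM in EHE6, 128, 181 and 174 in EHE17, and 54.4 and 23.8 in EHE26. EHE26 held the lowest levels and EHE17 the highest, and the EHE26 libraries lay below those of both other lines. The log2 fold changes of -0.90 ± 0.39 against EHE6 (adjusted p = 0.314) and -2.04 ± 0.41 against EHE17 (adjusted p = 0.0703) did not pass. A fit with the replicate number as a term called it lower against EHE17, as described at the end.

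The other members of this group were called against EHE6. Xaf1, a pro-apoptotic antagonist of XIAP, was at 6.43 to 12.3 CPM in EHE6, 29.2 to 49.1 in EHE17 and 205 and 228 in EHE26, with log2 fold changes of 4.60 ± 0.38 (adjusted p = 0.00163) against EHE6 and 2.55 ± 0.35 (adjusted p = 0.0194) against EHE17. Samd9l, a growth-restraining antiviral protein, had log2 fold changes of 3.22 ± 0.41 (adjusted p = 0.0113) and 2.71 ± 0.41 (adjusted p = 0.0292). Epsti1 rested on few reads outside EHE26, with 13, 8 and 6 in EHE6, 8, 24 and 6 in EHE17, and 301 and 253 in EHE26. Its log2 fold changes were 5.31 ± 0.67 (adjusted p = 0.0106) and 5.07 ± 0.66 (adjusted p = 0.0162). Epsti1 too entered the test only through the EHE26 libraries, so these p-values are no evidence of a difference. Ifi35 was called against EHE6 alone, at 2.58 ± 0.46 (adjusted p = 0.0425).

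Cd274 (chr19:29367455-29388095), which encodes the checkpoint ligand PD-L1, was low in all lines. It was at 0.202, 0.593 and 0.357 CPM in EHE6, 0.671, 0.653 and 0.983 in EHE17, and 6.94 and 8.40 in EHE26. The lines did not overlap, and the log2 fold changes were 4.31 ± 0.61 (adjusted p = 0.0180) against EHE6 and 3.32 ± 0.58 (adjusted p = 0.0466) against EHE17.

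EHE17 lay between the other lines for most of the list, but Ifi44 alone passed the test against EHE6. Of 39 genes, 1 was called higher and 0 lower, beside 0.0794% of all tested genes called higher and 12 of 18882 called lower. The median log2 fold change was 1.03 (2.05-fold) against -0.03 over all tested genes, and 32 of 39 genes were higher on average. By edgeR's unadjusted p under 0.05 the count was 20 genes, 2 of them lower, beside 1302 of all 18882 tested genes. DESeq2 called 10 higher and 1 lower (Ifi205), beside 245 higher and 148 lower of 31318 genes. Every EHE17 library was above every EHE6 library for 17 genes, beside 7.25% of all tested genes. The means ran in the order EHE26 above EHE17 above EHE6 for 31 of the 39, beside 14.7% of all tested genes.

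Ifi44 was 15.5-fold higher in EHE17 than in EHE6, at a log2 fold change of 3.96 ± 0.51 (adjusted p = 0.0439). The call was lost in 7 of the 8 fits that left out 1 library, with log2 fold changes of 3.63 to 4.22 and adjusted p of 0.0825 to 0.244, and held without EHE6 replicate 3 (4.56, adjusted p = 0.0240). Without that library 5 genes were called, beside 36 of all 19010 genes tested in that fit. Parp14 (1.70 ± 0.24, adjusted p = 0.0621) and Xaf1 (2.05 ± 0.33, adjusted p = 0.0850) came next by p, each with every EHE17 library above every EHE6 library. Isg15 (3.21 ± 0.87, adjusted p = 0.385) and Rtp4 (2.87 ± 0.63, adjusted p = 0.217) had larger differences and a wider spread. The genes with lower values in EHE17 were led by Ifi205 (-2.77 ± 0.78, adjusted p = 0.412) and Sp100 (-1.61 ± 0.44, adjusted p = 0.389), neither called.

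The set of libraries moved this comparison. When the fit included the set, 6 genes passed with higher levels (Ifi44, Usp18, Ddx60, Phf11d, Xaf1 and Parp14), beside 0.323% of all tested genes, and the median was 1.03. In the first set alone, with 2 libraries a line, 2 of the 38 genes tested there were called higher (Ifi44 and Rtp4), beside 0.329% of all, with a median of 1.26. In the second set alone, with 1 library each of EHE6 and EHE17, 4 were called higher (Ifi44, Ifi204, Usp18 and Parp14), beside 1.54% of all, and Sp100 was called lower at -2.47, with a median of 0.52. In that set the spread comes wholly from the EHE26 pair, so these calls compare single libraries and carry no replicate check of either line. Ifi44 was called both with the set in the fit and in the first set alone.

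Within EHE6, replicate 3 stood above its line for much of the list. It was above both other EHE6 libraries for 28 of 39 genes, where the share over all tested genes was 36.3%, and below both for 8. The ratio of replicate 3 to the mean of replicates 1 and 2 had a median of 1.82 over the list, against 0.884 over all tested genes, and reached at least 2 for 19 of the 39 genes, against 14.4% of all. Ifit2 led with a ratio of 13.3, ahead of Isg15 (7.49), Phf11b (5.13), Ifit1 (5.04) and Herc6 (4.34). The lowest ratio was that of Ifi204, at 0.195. This is a comparison of 1 library with 2 and has no test.

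EHE17 replicate 3 showed less of this. It was above both other EHE17 libraries for 17 genes, where the share over all tested genes was 30.4%, and below both for 13, with a median ratio of 1.13 against 0.893 over all tested genes. Ifit2 again led, at 4.04, followed by Phf11b (3.55), Herc6 (2.74) and Usp18 (2.54), and these 4 of 39 were the only genes at a ratio of at least 2, a share near the 9.31% of all tested genes. Rtp4 and Ifit1, high in EHE6 replicate 3, had ratios of 0.355 and 0.689 here. In the same EHE6 library the summed level of 10 pan-endothelial markers was 2666 CPM, against 10490 and 12070 in EHE6 replicates 1 and 2, and that of 10 proliferation markers was 2924 CPM against 989 and 536. In EHE17 replicate 3 these sums were 6159 CPM (against 8990 and 10040) and 1821 CPM (against 412 and 692), and in EHE26 they were 4962 and 3891 CPM and 1571 and 1428 CPM. The part of these differences in the levels of the listed genes was not tested.

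**Figure D4:**
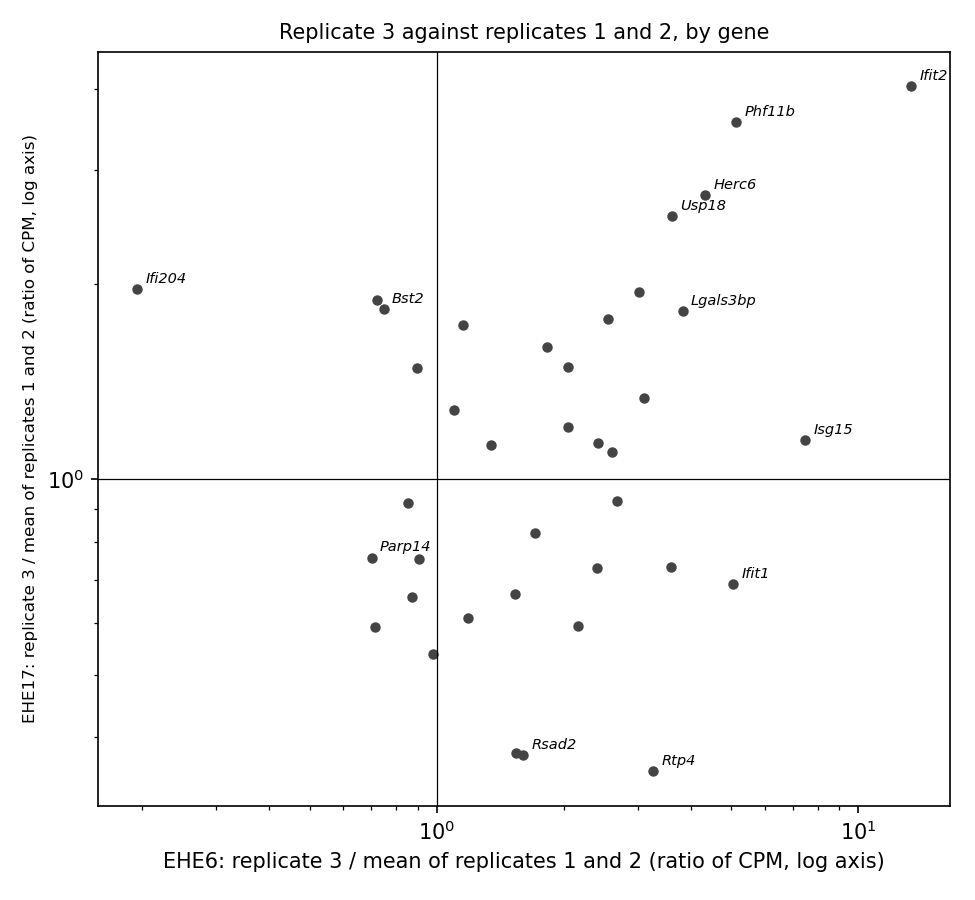
Ratio of replicate 3 to the mean of replicates 1 and 2 in EHE6 (horizontal) and in EHE17 (vertical), both on log axes, 1 point per gene; Ifi205, with no read in EHE17 replicate 3, is not drawn. Ifit2 is highest on both axes (13.3 and 4.04), and Ifi204 is lowest on the horizontal axis (0.195) at 1.97 on the vertical.

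The upstream interferon genes were read from a list of ligands, receptors, kinases, transcription factors and inhibitors. Of the 9 transcription factor genes, all tested, 4 were called higher in EHE26 against EHE6, 3 in EHE26 against EHE17 and 0 in EHE17 against EHE6. The share over all tested genes was 1.10%, 0.890% and 0.0794%. None was called lower, and 3 of the called genes are given here, so they do not stand for the whole class. Irf7, which amplifies the response by inducing interferon genes, was at 0.677 to 15.4 CPM in EHE6 and EHE17 and at 566 and 808 in EHE26, with log2 fold changes of 7.86 ± 1.14 (adjusted p = 0.0202) and 6.19 ± 1.06 (adjusted p = 0.0424). Stat2 was called in both comparisons with EHE26 (3.53 ± 0.43, adjusted p = 0.00931, and 2.70 ± 0.42, adjusted p = 0.0327). Irf9 was called against EHE6 (3.26 ± 0.34, adjusted p = 0.00508) and not against EHE17 (1.69 ± 0.33, adjusted p = 0.0647).

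None of the 6 receptor, 3 kinase and 6 inhibitor genes, all tested, was called by edgeR in any comparison. At an unadjusted p under 0.05 there was 1 inhibitor in each comparison with EHE26 and 1 kinase in EHE26 against EHE17, and DESeq2 called 1 inhibitor higher in each comparison with EHE26. Of 12 interferon ligand genes, none passed the low-count filter, 10 had no read in any library, and the highest count of any library was 26. Those 26 reads were of Ifnb1, named after its values were seen, which had 0, 0 and 0 reads in EHE6, 0, 2 and 0 in EHE17, and 8 and 26 in EHE26. DESeq2, which was run without that filter, called 1 ligand gene higher in EHE26 against EHE6 and 0 in the other comparisons.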

How the data were processed

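The authors deposited raw counts per gene for 8 libraries, and the file of each sample equals its column in the table of the series (8 of 8). Reads were aligned with HISAT2 to mm10, per the submitters' processing notes; the annotation, strand setting and counter are not given in the sources used here. RNA was extracted with a column kit and selected for polyA, per the labels' protocols. Symbols and positions come from GENCODE M21 (55141 of 55401 identifiers) and promoters from RefSeq (GRCm38.p6).

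Counts were filtered with filterByExpr by line and scaled by TMM, and 18882 genes, the 39 listed genes among them, were tested in edgeR 4.0.16 (R 4.3.3) with a quasi-likelihood fit of all 8 libraries and the line as the only term (residual df 5, biological coefficient of variation 0.6). Phf11b and Epsti1 did not pass the filter when it was run on the EHE6 and EHE17 libraries alone. The SE is the size of the log2 fold change divided by the square root of F. CPM on raw totals differed from TMM CPM by at most 1.06 times. Alternatives were DESeq2 1.42.0, RLE factors, no filter, a replicate block, the set of libraries as a term or alone, the 2 lines compared alone, and leaving out each library. The test was tested on simulated data.

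The members and the lists were chosen with earlier results of these data known. Per role group, values in every library are given for the gene with the highest mean, the gene with the largest EHE26 against EHE6 difference and any gene of opposite sign to its group. They are also given for genes called in EHE17 against EHE6 and, outside these rules, for Isg15. Most others are given by range or by fold change. Same-numbered EHE6 and EHE17 libraries departed from their line means together (r = 0.132, 0.18 and 0.574 across genes, which are not independent), which was taken as pairing for that comparison, although replicate 1 of EHE6 with 2 of EHE17 and 2 with 1 gave 0.536 and 0.623. Some genes of the marker and pathway lists are not reported here.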

Additional observations from a re-analysis of the deposited data

How the results depend on the processing

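For the listed genes called in a comparison, no alternative reversed the sign of the log2 fold change there. This was not checked for every gene that was not called. For EHE17 against EHE6, 1 listed gene was called higher, beside 15 of all tested genes. It became 4 with no low-count filter (92 of 31318) and 6 with the library set in the fit (61 of 18882). It became 0 with only the 2 lines fitted (4 of 17892), 2 in the first set alone (61 of 18535) and 10 in DESeq2 (245 of 31318). In the second set alone, where 1 library stands for each line, the median log2 fold change was 0.52. Leaving out single libraries gave 0 to 5, beside 1 to 36 of all tested genes. When single EHE6 or EHE17 libraries were left out, the 32 calls for EHE26 against EHE6 became 14 to 38, beside 58 to 834 of all tested genes. The 26 calls for EHE26 against EHE17 became 0 to 37, beside 1 to 749 of all tested genes. Calls rose without EHE6 replicate 3, to 38 and 37, and fell in the other fits that left out 1 library. The cause was not tested. A fit without an EHE26 library leaves 1, assumed to vary like the other lines. With the replicate block, calls numbered 1, 36 and 34 in the 3 comparisons, beside 22, 674 and 918 of all 18882 tested genes called higher. Pairing was taken for EHE17 against EHE6 alone. For EHE26, same-numbered libraries gave r = 0.182 (EHE6) and -0.064 (EHE17) for replicate 1, and -0.098 and -0.115 for replicate 2. EHE26 has no replicate 3, so its blocked comparisons rest mainly on replicates 1 and 2 of the other lines, which lie in the first set. There line and set of libraries cannot be told apart. With only EHE6 and EHE17 fitted, the block gave 1 call, beside 12 of 17892. Every listed gene called without the block was called with it. The block also called Ifi27 lower in EHE26 against EHE17, beside 942 of all tested genes called lower. In that comparison 1 listed gene was likewise called lower with no low-count filter (beside 267 of 31318 genes), without EHE6 replicate 3 (666 of 19010) and in DESeq2 (1040 of 31318). RLE factors gave 1, 32 and 26, beside 15, 200 and 169 of all tested genes. Genes with few reads outside EHE26 (Mx1, Phf11b, Ifi205 and Epsti1 among them) have uncertain levels there, and the floor of 3 counts covers counting error only.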
